A study of Homo sapiens and Mus musculus with 28 samples.

Results

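The cGAS-STING-TBK1 pathway was followed through 9 genes: CGAS, STING1, TBK1, IKBKE, IRF3, IFI16, TREX1, SAMHD1 and ENPP1. The members were the rows whose gene symbol equals one of these names, without regard to case, and each gene identifier was used once. All 9 were found among 35135 human gene identifiers, and 8 of the 9 among 32138 mouse identifiers, where no row is named Ifi16. Of these, 8 human and 7 mouse members passed the filter on low counts, and TREX1 did not in either species.

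The series asks how gene expression changes in squamous carcinoma of the head and neck (HNSCC) when the RNA exonuclease REXO4 is lost. It holds 28 polyadenylated RNA libraries in 10 groups. The mouse groups are autochthonous HNSCC tumors, that is, tumors that arose in the animal itself, from 2 Rexo4-knockout (R4KO) and 2 wild-type (Wt) samples. The human groups, with 3 libraries each, are cultures of SCC1, an established HNSCC cell line. A first set of 15 SCC1 libraries comprises control cells with vehicle (Ctrl Vehicle), 2 REXO4 knockouts with vehicle (R4KO_1 and R4KO_2), and KO_2 cells treated with either H-151 or BX-795. A second set of 9 comprises Vehicle, iR4, and H-151 together with iR4 (H151_iR4). No set or batch is named in the labels, so this division was read from the group names and is an assumption. The drug-treated groups are labelled KO_2 and were taken to be R4KO_2 cells. The labels do not explain iR4, and they give no dose, treatment time, animal age, knockout method or source of the replicates. The p-values therefore measure only the spread between these samples, which may be technical.

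The enzyme cGAS binds double-stranded DNA in the cytosol and makes the second messenger cGAMP, which activates STING on the endoplasmic reticulum. Activated STING recruits the kinase TBK1 and its relative IKKε, the product of IKBKE, which phosphorylate the transcription factor IRF3 so that it switches on interferon and related genes. IFI16 is a further DNA sensor that works with STING, TREX1 and SAMHD1 limit the nucleic acids that could trigger the pathway, and ENPP1 breaks down cGAMP outside the cell. H-151 is a covalent inhibitor of STING, and BX-795 inhibits TBK1 and IKKε along with other kinases.

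Promoter windows from 250 bases before to 50 bases after a start site were matched in RefSeq (GRCh38.p14) for 6 of the 9 members, IFI16 with 2 windows; CGAS, STING1 and IRF3 were not matched. The windows below belong to 3 members that rose in R4KO_2 cells (IFI16, SAMHD1 and ENPP1) and to TBK1, which was not called there. They lie at chr1:159009657-159009956 (plus strand, IFI16, the second window), chr20:36951659-36951958 (minus strand, SAMHD1), chr6:131807770-131808069 (plus strand, ENPP1) and chr12:64451870-64452169 (plus strand, TBK1). Capitals mark the match to GAAANGAAA described after them.
IFI16: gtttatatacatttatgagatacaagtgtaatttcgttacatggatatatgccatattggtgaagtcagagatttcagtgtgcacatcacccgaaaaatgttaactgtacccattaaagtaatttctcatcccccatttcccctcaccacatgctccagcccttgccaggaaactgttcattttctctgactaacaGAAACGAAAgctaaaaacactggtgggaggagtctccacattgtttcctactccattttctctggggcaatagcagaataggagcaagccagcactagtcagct
SAMHD1: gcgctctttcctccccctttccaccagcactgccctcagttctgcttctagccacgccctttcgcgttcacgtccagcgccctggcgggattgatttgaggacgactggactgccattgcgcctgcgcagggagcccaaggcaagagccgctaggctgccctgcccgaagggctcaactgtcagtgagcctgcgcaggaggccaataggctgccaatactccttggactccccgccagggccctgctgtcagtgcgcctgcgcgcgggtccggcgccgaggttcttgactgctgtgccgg
ENPP1: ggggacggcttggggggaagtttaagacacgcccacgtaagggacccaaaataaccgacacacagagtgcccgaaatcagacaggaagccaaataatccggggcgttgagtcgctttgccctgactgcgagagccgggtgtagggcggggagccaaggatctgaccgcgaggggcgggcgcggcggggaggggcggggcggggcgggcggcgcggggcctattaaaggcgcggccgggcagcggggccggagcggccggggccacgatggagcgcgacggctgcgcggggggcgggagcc
TBK1: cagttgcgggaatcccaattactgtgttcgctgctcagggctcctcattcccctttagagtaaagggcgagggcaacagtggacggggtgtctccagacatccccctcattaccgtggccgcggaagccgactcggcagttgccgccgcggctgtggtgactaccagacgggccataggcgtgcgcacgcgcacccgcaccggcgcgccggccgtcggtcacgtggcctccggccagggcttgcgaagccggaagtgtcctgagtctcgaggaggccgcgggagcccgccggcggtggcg

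Neither of 2 interferon response motifs was present on either strand of the 7 windows: the core GAAANNGAAA of the interferon-stimulated response element, which 3.57% of 35116 windows hold, and the gamma-activated core TTCNNNGAA, which reads alike on both strands and which 7.66% hold. The shorter spacing GAAANGAAA, chosen after the sequences were seen, occurred once, as GAAACGAAA from base -54 to base -46 of the IFI16 start, and is held by 3.12% of windows. The IFI16 window had a GC content of 41.7%, against 65.7% for SAMHD1, 71.3% for ENPP1 and 68.3% for TBK1. These matches are descriptions of the sequence alone.

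Library depth was 16.73 to 18.19 M counts in mouse and 16.04 to 27.94 M in SCC1, and every tested human member had at least 186 counts in every library. Levels are given as CPM, the counts per 1 M counts of a library, scaled by edgeR's trimmed mean of M-values (TMM), with all 24 SCC1 libraries on 1 scale. REXO4 itself measured 70.7 to 77.1 CPM in the Ctrl Vehicle libraries, 9.14 to 9.78 in those of R4KO_1 and 4.95 to 7 in those of R4KO_2. It stood at 16.9 to 19.7 CPM in KO_2 cells with H-151 and 18.6 to 19.4 with BX-795, above the R4KO_2 libraries with vehicle. In the second set it was 92.1 to 98.6 CPM in Vehicle, 58.1 to 63.2 in iR4 and 88.9 to 93.1 in H151_iR4. Mouse Rexo4 was 30.3 and 31.1 CPM in Wt and 14.9 and 17.4 in R4KO tumors.

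Some libraries stood apart from their set. R4KO_1 replicate 3 differed from replicate 1 by 10.4 times the sampling variance (chi-square per degree of freedom), against 1.66 to 4.89 for all other SCC1 replicate pairs. R4KO_1 replicate 2 differed from replicate 1 by 3.42 and from replicate 3 by 4.89, so these values do not single out 1 library. The drug-treated KO_2 libraries were also deeper, at 21.36 to 27.94 M counts against 17.47 to 18.03 M in the other libraries of their set. In 1 fit of all 24 libraries, KO_2 cells with H-151 differed at least 2-fold from Ctrl Vehicle at 914 genes and from R4KO_2 at 2280. They differed at only 579 from Vehicle of the second set and at 496 from H151_iR4. With BX-795 these counts were 1024, 2270, 772 and 796. The drug results below therefore carry this difference between libraries, and drug and library set cannot be told apart.

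CGAS, the DNA sensor that makes cGAMP (ENSG00000164430, chr6:73413515-73452276, minus strand), was highest in iR4 cells. Its 3 libraries stood at 58.4, 60.3 and 64.8 CPM in Ctrl Vehicle, at 58.4, 68.4 and 74 in R4KO_1 and at 79.9, 85.7 and 89.4 in R4KO_2. The R4KO_2 libraries were all above the control and R4KO_1 libraries, while R4KO_1 overlapped the control. Levels fell to 53.6, 56.2 and 59.1 CPM with H-151 and to 59.6, 62 and 62.9 with BX-795. The second set gave 56.8, 60.2 and 62.9 CPM in Vehicle, 108, 110 and 134 in iR4, and 61.9, 62.8 and 63 in H151_iR4. All iR4 libraries were thus above every other library. The vehicle controls of both sets spanned 56.8 to 64.8 CPM, which held the BX-795 and H151_iR4 libraries, while 2 of the 3 KO_2 libraries with H-151 were below it. Group means descended from 118 in iR4 to 85 in R4KO_2 and 66.9 in R4KO_1. The other five group means, from 62.6 down to 56.3, overlapped their neighbours in library values.

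By edgeR's quasi-likelihood test with Benjamini-Hochberg adjustment over all genes, CGAS rose by 0.48 ± 0.067 (log2 fold change ± SE) in R4KO_2 (adjusted p = 1.74e-06). In iR4 it rose by 0.98 ± 0.059, a 1.97-fold change (edgeR adjusted p = 1.43e-13). In R4KO_1 the value was 0.14, with a 95% interval from 0 to 0.28 and an edgeR adjusted p of 0.0784, so no change was called. Upper-quartile scaling brought that value past the threshold, at 0.183 with an edgeR adjusted p of 0.0169, as did fitting without a filter (0.0469) or without Ctrl Vehicle replicate 1 (0.0443) or R4KO_1 replicate 1 (0.00176). H-151 lowered CGAS by -0.61 ± 0.065 in KO_2 cells and by -0.91 ± 0.059 in iR4 cells, and BX-795 by -0.48 ± 0.065.

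IFI16, a DNA sensor of the PYHIN family (ENSG00000163565, chr1:158999968-159055155, plus strand), had the highest level of the members per length of exon. In Ctrl Vehicle it had 47.6 CPM per kilobase, followed by IRF3 at 21.1, CGAS at 14.7, TBK1 at 12.3, STING1 at 9.35, SAMHD1 at 6.04, IKBKE at 3.82 and ENPP1 at 1.27. Its libraries stood at 237, 240 and 279 CPM in Ctrl Vehicle, 247, 251 and 325 in R4KO_1, and 296, 325 and 335 in R4KO_2. The upper end of R4KO_1 was replicate 3, one library of the pair that stood apart. With H-151 the KO_2 cells had 137, 141 and 141 CPM, and with BX-795 they had 118, 121 and 133. In the second set, Vehicle had 138, 139 and 144 CPM, iR4 204, 222 and 223, and H151_iR4 125, 129 and 130.

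IFI16 in the drug-treated KO_2 cells was therefore below the control of its own set in every library, and its range of 118 to 141 CPM met that of the second set's Vehicle. It rose by 0.34 ± 0.079 in R4KO_2 (edgeR adjusted p = 0.000668) and by 0.63 ± 0.037 in iR4 (1.07e-13). In R4KO_1 its change was 0.13, with an interval from -0.03 to 0.29, and without replicate 3 it was -0.0091. Upper-quartile scaling called it there, at 0.172 with an edgeR adjusted p of 0.0466, as did fitting without a filter (0.015) or without Ctrl Vehicle replicate 3 (0.0363), R4KO_1 replicate 1 (0.0357) or R4KO_1 replicate 2 (0.0444). H-151 lowered it by -1.20 ± 0.080 and BX-795 by -1.37 ± 0.081 in KO_2 cells, the latter a 2.59-fold difference. Against Ctrl Vehicle these drug-treated cells differed by -0.86 and -1.03, but against Vehicle of the second set by 0 (edgeR adjusted p = 0.966) and -0.18 (0.042). The baselines of the sets differed by -0.85 ± 0.072 (Vehicle against Ctrl Vehicle, edgeR adjusted p = 4.76e-11).

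STING1, the cGAMP receptor and adaptor (ENSG00000184584, chr5:139475534-139482935, minus strand), rose in both knockouts and in iR4 cells and fell with both drugs. It stood at 34.5, 35.4 and 38.2 CPM in Ctrl Vehicle, 45.1, 50.8 and 62.4 in R4KO_1, and 51.2, 51.7 and 58.9 in R4KO_2. No knockout library reached down to a control library, and R4KO_1 replicate 3 was the highest of all 24. KO_2 cells had 30.5, 31.1 and 31.9 CPM with H-151 and 34.8, 36.3 and 37.8 with BX-795. In the second set, Vehicle had 26.8, 28 and 29.4 CPM, iR4 49.8, 50.2 and 51.8, and H151_iR4 31.1, 31.6 and 32.6. The 3 highest group means were 53.9 in R4KO_2, 52.8 in R4KO_1 and 50.6 in iR4, which overlapped in library values, and all other groups were below them without overlap.

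STING1 differed from control by 0.56 ± 0.084 in R4KO_1 (edgeR adjusted p = 5.4e-06) and by 0.58 ± 0.084 in R4KO_2 (2.61e-06). Without R4KO_1 replicate 3 the first value was 0.422 with an edgeR adjusted p of 3.47e-06. In iR4 the rise was 0.85 ± 0.051, a 1.81-fold change. The fall was -0.80 ± 0.082 with H-151 and -0.58 ± 0.081 with BX-795 in KO_2 cells, and -0.68 ± 0.051 with H-151 in iR4 cells. H151_iR4 stayed above Vehicle by 0.18 ± 0.055 (edgeR adjusted p = 0.0267), a call lost with DESeq2 (0.0915) and without H151_iR4 replicate 1 or 3 or Vehicle replicate 1 or 3 (0.0572 to 0.131). KO_2 cells with H-151 were below Ctrl Vehicle by -0.22 ± 0.087 (edgeR adjusted p = 0.0385). That call was lost without Ctrl Vehicle replicate 1 or 2 or any 1 of the 3 KO_2 H-151 libraries (0.0572 to 0.147). Against Vehicle of the second set that difference turned to 0.152 (edgeR adjusted p = 0.119). KO_2 cells with BX-795 were above that Vehicle by 0.37 ± 0.078 (edgeR adjusted p = 0.000181), but differed from Ctrl Vehicle by 0 (0.982).

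**Figure D1:**
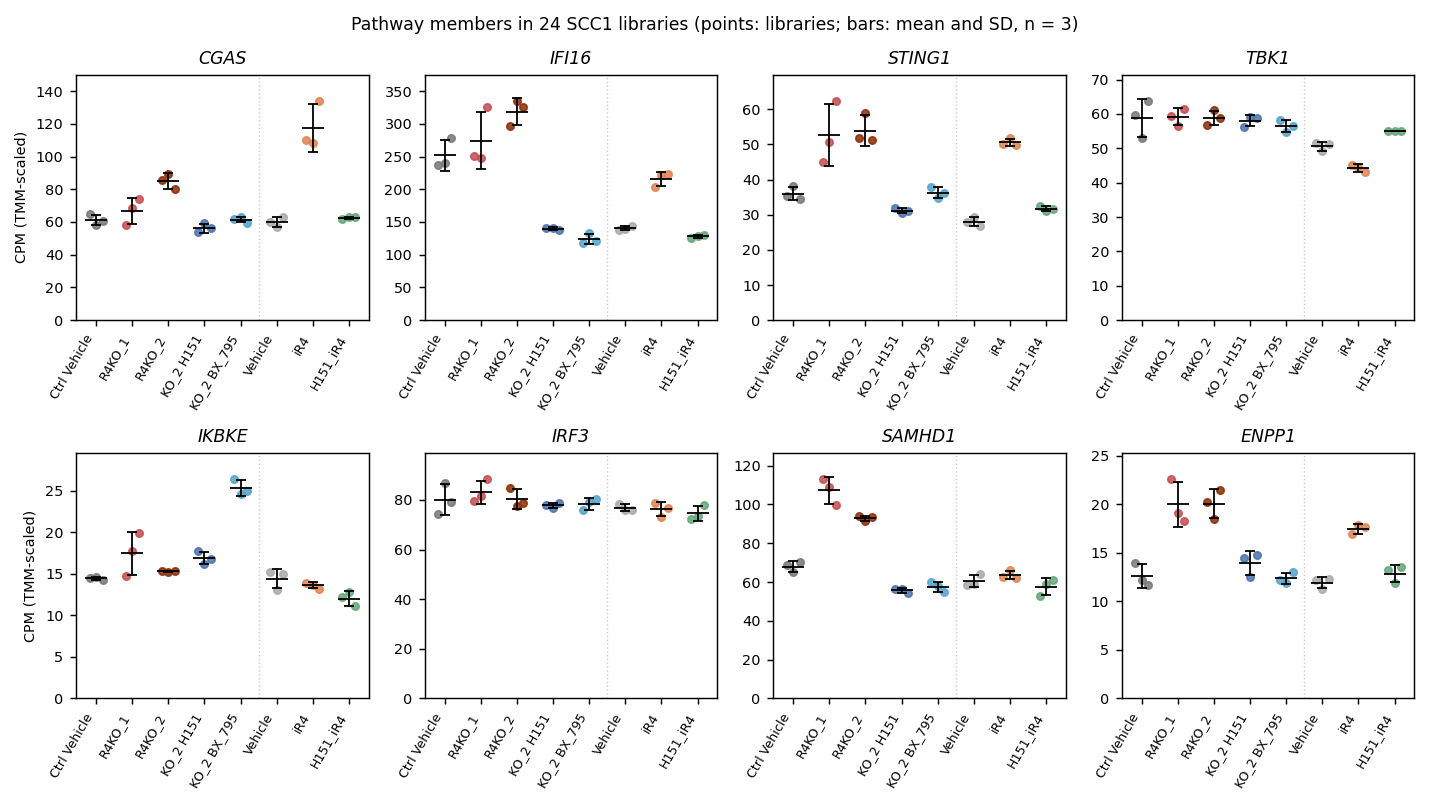
TMM-scaled CPM (vertical axes, each from 0) of the 8 tested members in the 8 SCC1 groups, with points for libraries and black bars for the mean and SD of 3 libraries; a dotted line separates the 2 sets. CGAS, STING1 and ENPP1 are high in R4KO_2 and iR4 and low in the drug-treated groups, IRF3 is near 80 CPM throughout, and IFI16 is at 118 to 144 CPM in the drug-treated KO_2 cells and the second set's Vehicle.

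TBK1, the kinase that phosphorylates STING and IRF3 (ENSG00000183735, chr12:64451880-64502108, plus strand), was not called in either knockout. Its levels were 53, 59.6 and 63.8 CPM in Ctrl Vehicle, 56.5, 59.5 and 61.5 in R4KO_1, and 56.7, 58.7 and 61 in R4KO_2. These groups overlapped throughout. The differences from control were 0.02, with an interval from -0.10 to 0.14, and 0, with an interval from -0.12 to 0.12. The drugs gave values of -0.03 and -0.07 in KO_2 cells, neither called. Against Vehicle of the second set, TBK1 was higher in KO_2 cells with H-151, by 0.20 ± 0.051 (edgeR adjusted p = 0.00201). With BX-795 it was higher by 0.16 ± 0.051 (0.0109). The second set differed: Vehicle had 49.1, 51.3 and 51.5 CPM, iR4 43.1, 44.7 and 45.2, and H151_iR4 54.9, 55 and 55.1, with no overlap among the 3 groups. TBK1 fell by -0.19 ± 0.045 in iR4 (edgeR adjusted p = 0.00058) and rose by 0.31 ± 0.045 when H-151 was added (1.19e-06), opposite to CGAS and STING1 in both comparisons.

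IKBKE, which encodes the TBK1-related kinase IKKε (ENSG00000263528, chr1:206470476-206496889, plus strand), was set apart by BX-795. Its libraries in Ctrl Vehicle stood at 14.3, 14.5 and 14.6 CPM, and those of KO_2 cells with BX-795 at 24.6, 25 and 26.4. Every BX-795 library was above every other SCC1 library, the next being an R4KO_1 library at 19.9. R4KO_2 cells had 15.2, 15.3 and 15.4 CPM, and KO_2 cells with H-151 had 16.2, 16.8 and 17.7. BX-795 raised IKBKE by 0.72 ± 0.078 over R4KO_2 (edgeR adjusted p = 2.83e-08), by 0.80 ± 0.080 over Ctrl Vehicle (2.55e-08) and by 0.59 ± 0.074 over H-151 (1.67e-05). Against Vehicle of the second set the difference was 0.82 ± 0.075 (edgeR adjusted p = 2.16e-10), as large as against its own control.

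With H-151 the IKBKE value in KO_2 cells was 0.13, not called. R4KO_1 cells had 14.7, 17.8 and 19.9 CPM of IKBKE, higher than Ctrl Vehicle by 0.28 ± 0.086 (edgeR adjusted p = 0.00688). That call rested on R4KO_1 replicate 3: without it the value was 0.178 with an edgeR adjusted p of 0.0713. The R4KO_2 value of 0.08 was not called. In the second set IKBKE was 13.1, 15 and 15.2 CPM in Vehicle, 13.2, 13.7 and 13.9 in iR4, and 11.1, 12.2 and 12.8 in H151_iR4, the lowest group of the 8. The H151_iR4 value against iR4, -0.17, was not called (edgeR adjusted p = 0.0605), but upper-quartile scaling called it at -0.219 (0.0204), as did leaving out H151_iR4 replicate 2 (0.0432).

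IRF3, the transcription factor that TBK1 activates by phosphorylation (ENSG00000126456, chr19:49659569-49665875, minus strand), was called in none of the 14 SCC1 comparisons. Its 8 group means ran from 74.7 CPM in H151_iR4 to 83.2 in R4KO_1, and each group overlapped the next in library values. The 24 libraries lay between 72.3 and 88.4 CPM. The 6 main SCC1 comparisons gave values of 0.06 in R4KO_1, 0.01 in R4KO_2, -0.06 and -0.05 with H-151 and BX-795, 0 in iR4 and -0.04 with H-151 added to iR4. Their 95% intervals together spanned -0.17 to 0.17. Of the IRF3 exon bases in GENCODE v29, 19.35% overlap BCL2L12 on the other strand, and no source used here states whether strand was taken into account. The same limit holds for TBK1, with 14.74% overlapping AC135279.3, and SAMHD1, with 10.29% overlapping TLDC2, each on the other strand.

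SAMHD1, a phosphohydrolase that lowers the nucleotide pool and limits DNA that could reach cGAS (ENSG00000101347, chr20:36889773-36951901, minus strand), moved with the knockouts but was not called in iR4. Its libraries stood at 65, 68.7 and 70.2 CPM in Ctrl Vehicle, 99.7, 109 and 113 in R4KO_1, and 91.2, 93.4 and 93.9 in R4KO_2. The groups did not overlap, and R4KO_1 was the highest of the 8. KO_2 cells had 54.3, 56.2 and 56.5 CPM with H-151 and 54.8, 57.7 and 60.1 with BX-795. The second set gave 58.4, 59.2 and 64.1 CPM in Vehicle, 62.2, 62.7 and 66.1 in iR4, and 52.6, 59.2 and 60.8 in H151_iR4. From Ctrl Vehicle at 68 CPM down to KO_2 with H-151 at 55.7 CPM, each group overlapped the next.

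SAMHD1 rose by 0.67 ± 0.050 in R4KO_1 (edgeR adjusted p = 1.48e-10) and by 0.45 ± 0.051 in R4KO_2 (7.19e-08), and the difference between the knockouts, -0.22 ± 0.049, was called as well (0.00147). In KO_2 cells it fell by -0.75 ± 0.050 under H-151 and -0.70 ± 0.050 under BX-795. In iR4 the value was 0.07, with an interval from -0.03 to 0.18, and upper-quartile scaling called it at 0.114 (edgeR adjusted p = 0.0474). The iR4 effect was smaller than the mean knockout effect by -0.49 ± 0.070 (edgeR adjusted p = 3.99e-06). H-151 added to iR4 gave -0.14 ± 0.051 (edgeR adjusted p = 0.0147), a call lost with DESeq2 (0.0523), without H151_iR4 replicate 1 (0.137) and without iR4 replicate 2 (0.0636).

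ENPP1, the membrane enzyme that degrades extracellular cGAMP (ENSG00000197594, chr6:131808016-131895155, plus strand), had the lowest level of the tested members per kilobase. Its libraries stood at 11.7, 12.2 and 14 CPM in Ctrl Vehicle, 18.3, 19.1 and 22.6 in R4KO_1, 18.5, 20.2 and 21.5 in R4KO_2, and 16.9, 17.7 and 17.9 in iR4. Every one of these knockout and iR4 libraries was above every library of the other five groups, which reached 14.8 CPM. The rise was 0.67 ± 0.095 in R4KO_1 (edgeR adjusted p = 2.04e-06), 0.67 ± 0.094 in R4KO_2 (1.84e-06) and 0.55 ± 0.074 in iR4 (3.3e-07). It fell by -0.54 ± 0.089 with H-151 and -0.71 ± 0.090 with BX-795 in KO_2 cells, and by -0.45 ± 0.074 with H-151 in iR4 cells. Neither drug-treated KO_2 group differed from Ctrl Vehicle past the threshold (edgeR adjusted p = 0.26 with H-151 and 0.762 with BX-795). H151_iR4 did not differ from Vehicle (0.429). Against Vehicle of the second set, KO_2 cells with H-151 were higher by 0.23 ± 0.088 (edgeR adjusted p = 0.0352). With BX-795 the value was 0.05 (0.642).

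TREX1, the main cytosolic DNA exonuclease (ENSG00000213689, chr3:48465811-48467645, plus strand), is listed at 0 in all 24 SCC1 libraries, and Trex1 in all 4 mouse libraries. In GENCODE v29 all 1515 of its exon bases (100%) are shared with ATRIP on the same strand. Of 78 protein-coding genes with every exon base shared with other genes, 42 (53.85%) are at 0 in all 24 libraries, against 1666 (8.71%) of 19135 other protein-coding genes. ATRIP itself had 3 to 17 counts in the SCC1 libraries, and mouse Atrip had 210 to 401. No source used here states how reads in shared bases were assigned, so the SCC1 zeros carry no information on TREX1 expression. Exon overlap was not looked at in mouse, and the Trex1 zeros were not read as absence either.

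Counted over the members, R4KO_1 had 4 of 8 called, all higher, where 64.5% of 14348 tested genes were called in either direction and 33.0% were higher. R4KO_2 had 5 of 8, all higher, against 66.2% and 34.0% of genes. Both comparisons share the Ctrl Vehicle libraries. These member counts lie at or below the background in either direction, and the shared direction rests on 4 or 5 genes. The R4KO_1 count was not stable, at 3 to 6 members on leaving out 1 library. Upper-quartile scaling and fitting without a filter on low counts each called CGAS and IFI16 in R4KO_1 as well. The median log2 fold change of all tested genes was 0.02 in both comparisons. In direct comparison, R4KO_2 differed from R4KO_1 at 3 of 8 members, against 31.6% of genes: CGAS was higher by 0.34 ± 0.066, IFI16 higher by 0.21 ± 0.078 with overlapping libraries, and SAMHD1 lower. The IFI16 call was lost with DESeq2 (adjusted p = 0.148), with only these 2 groups in the edgeR fit (0.121), and without R4KO_1 replicate 1 or 2 or R4KO_2 replicate 2 or 3 (0.117 to 0.234).

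With H-151, KO_2 cells had 5 of 8 members lower and none higher, against 72.7% of genes called and 37.0% lower. With BX-795, 5 were lower and 1 higher, against 73.6% of genes called, 37.1% lower and 36.4% higher. The same 5 members, CGAS, STING1, IFI16, SAMHD1 and ENPP1, were lower with each drug and higher in R4KO_2 cells, but these comparisons share the R4KO_2 libraries, which by itself links their directions. Between the drugs, IKBKE was the member called, 1 of 8 against 9.67% of genes. The other seven differences ran from -0.17 for IFI16 and ENPP1 to 0.22 for STING1, the last with an interval from 0.05 to 0.40 and an edgeR adjusted p of 0.101. Fitting only these 2 groups called 4 members, and fitting without a filter on low counts called 3. The share of all genes called in those fits was not computed, so these counts have no background beside them.

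Against Ctrl Vehicle, 4 of 8 members differed in KO_2 cells with H-151 (53.0% of genes) and 3 of 8 with BX-795 (55.7%). IFI16 and SAMHD1 were lower and IKBKE higher with each drug, and STING1 lower with H-151. The H-151 call of IKBKE, 0.21 ± 0.084, was lost with DESeq2 (adjusted p = 0.0681) and without any 1 of the Ctrl Vehicle libraries or KO_2 H-151 replicate 1 or 3 (edgeR adjusted p 0.0649 to 0.119). Leaving out 1 library at a time left 2 or 3 members called, with 2 left without Ctrl Vehicle replicate 1 or 2 or KO_2 H-151 replicate 1 or 3. With Vehicle of the second set as reference, 3 members (45.7% of genes) and 4 members (51.6%) were called, and SAMHD1 was among neither. CGAS and ENPP1 did not pass the threshold against Ctrl Vehicle with either drug, with differences of -0.13 and 0.13 for H-151 and 0 and -0.04 for BX-795.

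In the second set, iR4 changed 5 of 8 members, 4 higher and 1 lower, against 71.9% of genes called, 37.1% higher and 34.8% lower. H-151 added to iR4 changed 6 of 8, with 5 lower and TBK1 higher, against 71.4% called, 36.3% lower and 35.1% higher. After H-151 plus iR4, 3 of 8 members differed from Vehicle, against 18.3% of genes: STING1 was higher, and IKBKE (-0.25 ± 0.082) and IFI16 (-0.13 ± 0.039) were lower. The IKBKE and IFI16 calls were lost without H151_iR4 replicate 1 or Vehicle replicate 3, among others. The count of 3 fell to 1 with DESeq2, without H151_iR4 replicate 3 or without Vehicle replicate 1, and to 0 without H151_iR4 replicate 1 or Vehicle replicate 3. The iR4 and H151_iR4 comparisons share the iR4 libraries, so their opposite directions are not independent. H-151 in iR4 cells and H-151 in KO_2 cells were set against each other in the fit of all 24 libraries, and 5 of 8 members differed (50.7% of genes).

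**Figure D2:**
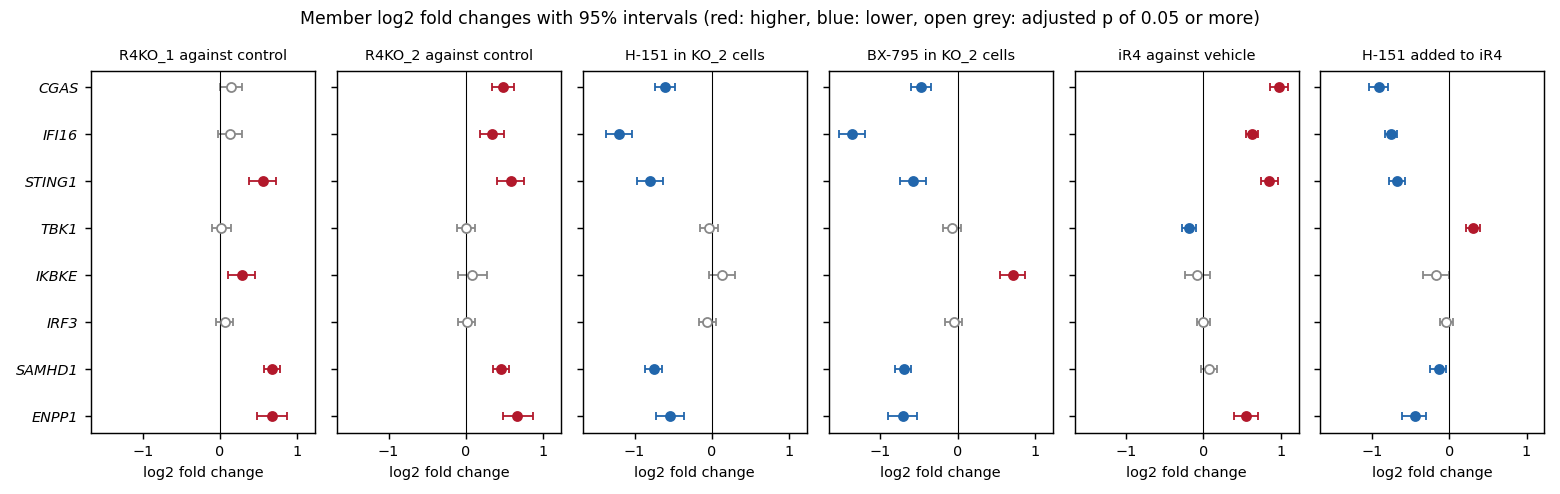
Log2 fold changes (horizontal axes) of the 8 tested members in 6 SCC1 comparisons, with 95% intervals; red points are higher and blue points lower at an edgeR adjusted p under 0.05, and open grey points are not called. CGAS, STING1 and ENPP1 lie right of 0 in R4KO_2 and iR4 and left of 0 with the drugs, TBK1 departs from 0 only in the 2 iR4 comparisons, and IKBKE reaches 0.72 with BX-795.

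The iR4 effect and the mean of the knockout effects differed at 5 of 8 members, against 27.8% of genes. CGAS rose more in iR4, by 0.67 ± 0.094 (edgeR adjusted p = 2.46e-06), as did IFI16, by 0.40 ± 0.094 (0.00177), and STING1, by 0.29 ± 0.101 (0.0351). The difference was negative for TBK1 (-0.20 ± 0.069) and for SAMHD1 (-0.49 ± 0.070). SAMHD1 rose in the knockouts and was not called in iR4. Leaving out 1 library at a time gave 3 to 6 members, with 3 left without Ctrl Vehicle replicate 2 or Vehicle replicate 1 or 3. The STING1 difference lost its call on leaving out any 1 of 9 of the 15 libraries (edgeR adjusted p 0.05 to 0.111): Ctrl Vehicle 1 or 2, iR4 1 or 2, R4KO_1 replicate 2, R4KO_2 1 or 3 and Vehicle 1 or 3. The TBK1 difference lost it without Ctrl Vehicle 2, iR4 replicate 3, R4KO_2 replicate 2 or Vehicle 1 or 3 (0.0509 to 0.143), and with no filter on low counts (0.0574). At baseline, 4 of 8 members were lower in Vehicle of the second set than in Ctrl Vehicle, against 51.5% of genes: besides IFI16 these were STING1 (-0.36 ± 0.081), TBK1 (-0.22 ± 0.052) and SAMHD1 (-0.17 ± 0.054), the last lost without Ctrl Vehicle replicate 3 (edgeR adjusted p = 0.0588) or Vehicle replicate 1 (0.0585). Library set and treatment cannot be told apart in these differences.

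Across the 24 SCC1 libraries, with log2 CPM centred on the mean of each set, some members followed each other more closely than others. Pearson's r was 0.863 for CGAS with STING1, 0.821 for STING1 with ENPP1, 0.786 for IFI16 with SAMHD1 and 0.784 for SAMHD1 with ENPP1. TBK1 ran against CGAS, at -0.553, and IKBKE against IFI16, at -0.533, while IRF3 stayed within -0.2 to 0.361 of all others. Among 9788 genes, the one most like each member was SGMS1 for CGAS (0.973), WWTR1 for STING1 (0.972), DHRS3 for IFI16 (0.972), C1R for SAMHD1 (0.966), CD63-AS1 for ENPP1 (0.952), UNC13D for IKBKE (0.88), ZNF280D for TBK1 (0.859) and EVPL for IRF3 (0.678). All these values come from the same libraries and group differences and are descriptions.

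Genes around the members were counted in 8 lists. These counts are read against all tested genes, of which 64.5% were called and 33.0% higher in R4KO_1, 66.2% and 34.0% in R4KO_2, and 71.9% and 37.1% in iR4. The outputs of IRF3 and interferon signalling, such as chemokines and antiviral proteins, were higher for 11 and lower for 1 of 13 tested in R4KO_1 (median log2 fold change 1.93) and higher for 10 and lower for 0 of 13 in R4KO_2 (1.92). OASL, an OAS-like antiviral protein, went from a mean of 35.9 ± 2.97 CPM (SD over 3 libraries, as below) in the control to 250 ± 63.1 in R4KO_1 and 251 ± 24.9 in R4KO_2. IFIT1, which binds foreign RNA ends, stood at 51.1 ± 7.11, 213 ± 38.3 and 233 ± 7.17. Those changes, 2.81 for OASL in each knockout and 2.07 and 2.19 for IFIT1, exceed that of any member. In iR4 9 outputs of 12 were higher and 2 lower, with a median of 1.43.

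With the drugs most outputs were lower, where 37.0% of all genes were lower with H-151 in KO_2 cells, 37.1% with BX-795 and 36.3% with H-151 added to iR4. H-151 lowered 12 of 13 in KO_2 cells (median -2.81) and BX-795 lowered 12 and raised 1 (-2.73). OASL fell to 13.4 ± 0.454 and 7.37 ± 0.604 CPM, and IFIT1 to 24.1 ± 2.1 and 19.1 ± 0.596, in both cases below Ctrl Vehicle. H-151 added to iR4 lowered 9 of 12 and raised 2 (-2.61), with OASL falling from 154 ± 12.8 to 2.36 ± 0.99 CPM. Medians over all tested genes were 0.02 for the knockouts and iR4 and -0.01 for the drugs.

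Of 13 tested transcription factors of the IRF family and cofactors of IRF3, 10 were higher and 3 lower in R4KO_1 (33.0% of all genes were higher), 10 and 1 in R4KO_2 (34.0%), and 9 and 3 in iR4 (37.1%). Their medians were 0.69, 0.78 and 0.81. IRF7, the interferon-induced relative of IRF3, went from 4.67 ± 0.282 CPM in Ctrl Vehicle to 16.9 ± 1.11 in R4KO_1 and 19.1 ± 1.4 in R4KO_2. With H-151 10 of these 13 were lower and 1 higher (37.0% of all genes were lower), and with BX-795 8 were lower and 1 higher (37.1%). HERC5, a ligase for ISG15, fell from 53.6 ± 6.72 CPM in R4KO_2 to 2.57 ± 0.299 with H-151 and 2.04 ± 0.331 with BX-795. IRF3 itself was called in none of these comparisons.

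Of 16 other DNA sensors and cGAS cofactors, 11 were lower and 0 higher in R4KO_1, 12 lower and 1 higher in R4KO_2, and 11 lower and 1 higher in iR4 (34.8% of all genes were lower in iR4). Over all genes, 64.5% were called and 33.0% higher in R4KO_1, and 66.2% and 34.0% in R4KO_2. Their medians were -0.27, -0.26 and -0.26. XRCC5, a subunit of the Ku DNA end-binding complex, fell from 562 ± 11.3 CPM in Ctrl Vehicle to 403 ± 6.32 and 369 ± 9.89. DHX9, a helicase that unwinds RNA-DNA hybrids, fell from 517 ± 7.33 to 319 ± 10.1 and 338 ± 6.03. With H-151 in KO_2 cells, 11 of the 16 were higher and 1 lower, where 72.7% of all genes were called and 37.0% were lower. With BX-795, 11 were higher and 2 lower (36.4% of all genes were higher). AIM2, the inflammasome DNA sensor of the PYHIN family, fell from 8 ± 1.28 CPM in R4KO_2 to 0.509 ± 0.0859 with H-151 and 0.589 ± 0.35 with BX-795.

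Lists on STING trafficking, TBK1 adaptors, cGAMP transport and clearance of DNA and hybrids had genes called in both directions. In R4KO_2, where 66.2% of all genes were called and 34.0% were higher, 15 of 29 STING regulators were higher and 7 lower, 12 of 21 TBK1 regulators higher and 3 lower, 6 of 12 cGAMP genes higher and 4 lower, and 5 of 14 clearance genes higher and 5 lower. Their medians were 0.1, 0.17, 0.32 and 0.05, against 0.02 over all genes. SLC19A1, a folate carrier that also imports cyclic dinucleotides, fell from 50 ± 6.87 CPM in Ctrl Vehicle to 11.7 ± 1.25 in R4KO_2 and stood at 62.6 ± 4.33 with H-151 and 53.9 ± 3.31 with BX-795. In iR4 it was 10.3 ± 0.84 against 70.8 ± 4.79 in Vehicle. INSIG1, which regulates sterol synthesis and is a cofactor of a STING ubiquitin ligase, went from 149 ± 15.2 CPM in Ctrl Vehicle to 583 ± 146 in R4KO_1. RNASEH1, which cuts RNA in RNA-DNA hybrids, fell from 34.9 ± 1.2 to 25.1 ± 1.39 in R4KO_1 and 21.9 ± 1.23 in R4KO_2.

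The NF-kB arm of STING signalling was higher for 7 and lower for 1 of 14 in R4KO_1, 9 and 3 in R4KO_2, and 10 and 2 in iR4, where 33.0%, 34.0% and 37.1% of all genes were higher. Medians of the list were 0.58, 0.51 and 0.45. IL6, a cytokine, went from 0.953 ± 0.328 CPM to 6.14 ± 1.48 and 7.3 ± 0.594 in the knockouts. In KO_2 cells 7 were higher and 4 lower with BX-795 (36.4% of all genes were higher and 37.1% lower). With H-151, 5 were higher and 7 lower, where 72.7% of all genes were called and 37.0% were lower. H-151 added to iR4 raised 2 and lowered 11 (36.3% of all genes were lower). CXCL3, a neutrophil chemokine, rose in KO_2 cells from 0.734 ± 0.224 CPM to 8.38 ± 0.221 with BX-795 and 8.64 ± 0.556 with H-151, but fell from 1.55 ± 0.147 in iR4 to 0.513 ± 0.194 when H-151 was added. TNFAIP3, which encodes the NF-kB-induced inhibitor A20 and belongs to the TBK1 list, rose in KO_2 cells from 27.6 ± 3.1 CPM to 85.2 ± 2.74 with BX-795 and 49 ± 1.32 with H-151. When H-151 was added to iR4 it fell from 47.9 ± 3.96 to 4.27 ± 1.04 CPM.

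**Figure D3:**
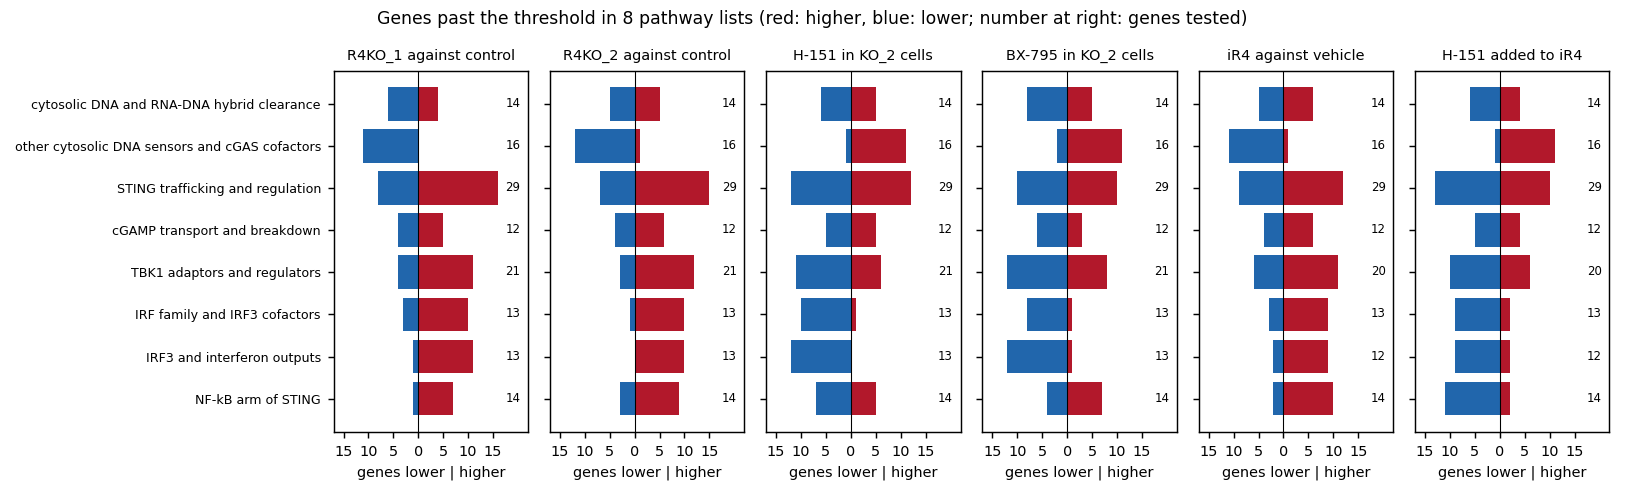
Genes past an edgeR adjusted p of 0.05 in 8 lists around the members (rows) and 6 SCC1 comparisons (panels), counted to the right where higher and to the left where lower, with the number tested at the right edge. The bars of the IRF3 and interferon outputs point right in the knockouts and iR4 and left with the drugs, and the other DNA sensors point the opposite way.

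Squamous markers KRT5, KRT14 and others (8 of 8) were present in every SCC1 library. Of 8 leukocyte markers, LCP1 made up nearly all of the summed level, which ran from 312 to 633 CPM. LCP1 itself was at 550 to 623 CPM in R4KO_1, 582 to 593 in R4KO_2, 480 to 515 in Ctrl Vehicle, 301 to 329 in the drug-treated KO_2 cells and 344 to 372 in the second set. LAPTM5 went the other way with the drugs. It was at 1.72 to 2.11 CPM in R4KO_2, 8.19 to 9.62 with H-151 and 12.9 to 14.2 with BX-795. CORO1A and ITGB2 also had their highest group means with BX-795, at 3.69 and 0.857 CPM. CD53 and FCER1G reached at most 0.329 and 0.158 CPM. PTPRC, which defines leukocytes, was at 0 in both knockouts and at most 0.0988 CPM elsewhere, and TYROBP was at 0 in all 24 libraries.

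In the mouse tumors no member was called in R4KO against Wt, and neither was any of the 14523 genes tested (0%); at an unadjusted p under 0.05, 0 of 7 members and 655 genes passed, and DESeq2 called 163 genes but no member. Cgas stood at 8.58 and 5.36 CPM in Wt replicates 1 and 2 and at 22.5 and 10.2 in R4KO. Sting1 stood at 1.02 and 2.98 CPM in Wt and 3.87 and 7.41 in R4KO. Both were higher in each knockout tumor than in each wild-type tumor, as were Ikbke (24.7 and 31.2 against 41 and 32 CPM) and Samhd1 (32.4 and 74.9 against 78 and 92). These are 4 of 7 members, against 16.4% of all genes.

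Enpp1, at 17.7 and 10.4 CPM in Wt and 8.25 and 9.93 in R4KO, was lower in both knockout tumors, 1 of 7 against 14.2% of genes. Tbk1 (40.5 and 37.7 against 55.6 and 37.9 CPM) and Irf3 (41.8 and 59.4 against 46.3 and 49.3) overlapped. The fitted differences were 1.23 for Cgas, with an interval from -0.21 to 2.67, 1.5 for Sting1 (-0.49 to 3.48), 0.66 for Samhd1 (-0.53 to 1.86), 0.39 for Ikbke (-0.46 to 1.23) and -0.63 for Enpp1 (-1.81 to 0.55). All had an edgeR adjusted p of 0.999, and every interval includes 0.

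**Figure D4:**
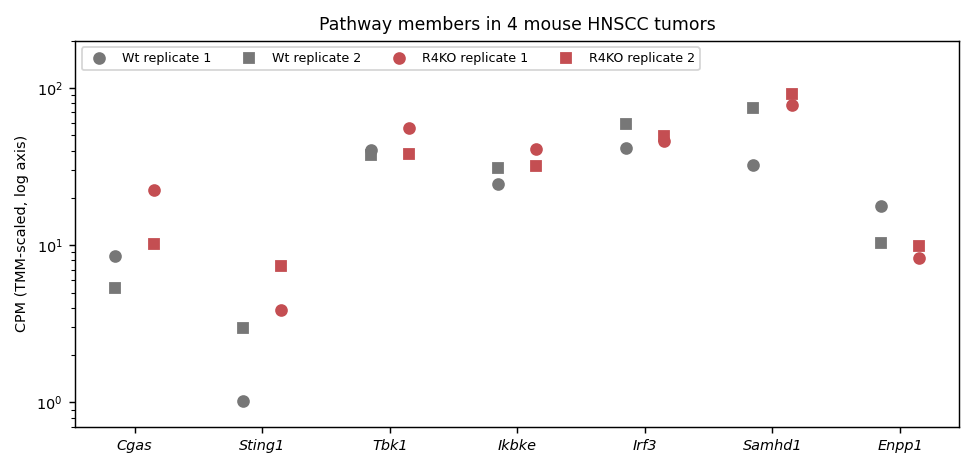
TMM-scaled CPM (vertical log axis) of the 7 tested members in 4 mouse tumors, with grey points for Wt and red points for R4KO, circles for replicate 1 and squares for replicate 2. Cgas, Sting1, Ikbke and Samhd1 are higher in both R4KO tumors than in both Wt tumors, and Enpp1 is lower.

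These tumors are mixed tissue, in which fewer cells of a type and less RNA per cell cannot be told apart. All 8 keratinocyte markers were present, with summed levels of 53740 and 70630 CPM in Wt and 32630 and 46430 in R4KO. The 8 leukocyte markers summed to 41.2 and 99.4 CPM in Wt and 122 and 239 in R4KO, with Ptprc at 3.1 and 7.88 against 16.8 and 28.4. Macrophage and dendritic cell markers (7 of 8 above 0 in Wt replicate 1, 8 of 8 elsewhere) summed to 60.1 and 150.7 against 117 and 254 CPM. T and NK cell markers summed to 0.79 and 2.12 CPM in Wt, with 4 and 2 of 8 at 0, and to 9.6 and 12.1 in R4KO, with 1 of 8 at 0 in each. Endothelial markers summed to 252 and 200.6 CPM in Wt and 148.7 and 193.6 in R4KO, and fibroblast markers to 2111 and 1051 against 590.4 and 1345. Muscle markers were at 2693 CPM in R4KO replicate 1 and at 14.3 to 326 in the other tumors. The leukocyte and the T and NK sums were higher in each R4KO tumor, as were Cgas, Sting1, Ikbke and Samhd1. The keratinocyte and endothelial sums were lower in each R4KO tumor, as was Enpp1, while the macrophage, fibroblast and muscle sums overlapped. The part of these cell types in the member values was not tested.

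The pathway lists in the mouse had no gene past the threshold, although the median of 14 tested IRF3 and interferon outputs was 2.72 (log2 fold change) against 0.01 for all genes. Cxcl10, a T cell-attracting chemokine, was at 23.4 ± 8.43 CPM (SD, n = 2) in R4KO and 0.721 ± 0.177 in Wt, and Irf7 at 11.4 ± 0.274 and 3.37 ± 0.653. The other seven list medians lay between -0.11 and 0.25.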

How the data were processed

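RNA was sequenced from 4 mouse HNSCC tumors and 24 SCC1 cultures. By the labels' protocols this was polyadenylated RNA after DNase I treatment, although the labels call the molecule genomic DNA. The submitters' processing notes list HISAT2 2.2.1, featureCounts 2.0.1 and the builds mm10 and hg38. Annotation, strand setting and the handling of shared reads were not stated in the labels or file headers.

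The authors deposited raw counts per gene, 1 library per file, which were checked to be whole numbers. They were fitted with edgeR 4.0.16 (R 4.3.3) by quasi-likelihood F tests after TMM scaling and filterByExpr (minimum count 10), with p-values adjusted by Benjamini-Hochberg over all genes tested and a threshold of 0.05. The mouse libraries, the first 15 SCC1 libraries and the other 9 were fitted apart, and all 24 together for differences between sets and for printed SCC1 levels. Fold changes within a set come from that set's fit, and the script was tested on simulated data.

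Human positions and exon overlaps come from GENCODE v29 (GRCh38). Correlations of log2 CPM used a prior count of 2 and genes with a mean of at least 3 in both sets. Replicate numbers were not used to pair samples in the main fits. Same-numbered SCC1 libraries correlated at -0.085 to 0.195 in their deviations from the group means, and mouse libraries at 0.136. These values cannot show whether samples were paired by design. Replicate libraries differed beyond sampling noise. Named genes are the 9 members, REXO4, up to 2 genes with the lowest p from each list in each main comparison, and the genes most like each member. Members and lists were chosen with earlier results of these data known. Other settings tried were RLE or upper-quartile scaling, DESeq2 1.42.0 in place of edgeR, no filter, a filter of 1 CPM, a replicate block, only the groups compared, leaving out each library and, chosen after seeing the data, another vehicle as reference.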

Additional observations from a re-analysis of the deposited data

Results flagged for a closer look

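Effects of the same kind differed between groups at 13 points, each by a test of the difference itself with edgeR. In the order given below, these were 3, 5 and 5 of 8 members, against 31.6%, 27.8% and 50.7% of all genes. Between the knockouts, R4KO_2 minus R4KO_1 was 0.34 for CGAS, 0.21 for IFI16 and -0.22 for SAMHD1 on the log2 scale. The iR4 effect minus the mean knockout effect was 0.67 for CGAS, 0.29 for STING1, -0.20 for TBK1, 0.40 for IFI16 and -0.49 for SAMHD1. The effect of H-151 in iR4 cells minus its effect in KO_2 cells was -0.32 ± 0.099 for CGAS, 0.33 ± 0.073 for TBK1, -0.31 ± 0.117 for IKBKE, 0.43 ± 0.101 for IFI16 and 0.60 ± 0.075 for SAMHD1, with edgeR adjusted p-values of 0.00841, 0.000323, 0.0258, 0.00065 and 8.87e-08. The IKBKE difference was lost with DESeq2 (adjusted p = 0.06) and without H151_iR4 replicate 3 (edgeR adjusted p = 0.0867), iR4 replicate 1 (0.053) or KO_2 H-151 replicate 1 (0.0613). The STING1 and TBK1 differences between iR4 and the knockouts and the IFI16 difference between the knockouts were lost on leaving out any 1 of several libraries. The last 2 sets of differences lie across library sets, which cannot be told apart from the treatments.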

How the results depend on the processing

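The count of members called stayed within 1.5 times its value in all comparisons under RLE and upper-quartile factors, a filter of 1 CPM and the replicate block. Exceptions under other settings were BX-795 against H-151, with 1 member, 3 without a filter on low counts and 4 with only the groups compared, and H-151 plus iR4 against Vehicle, with 3 members and 1 under DESeq2. Leaving out 1 library gave 3 to 6 members for R4KO_1 against control and 2 to 3 for KO_2 cells with H-151 against control. It gave 0 to 3 for H-151 plus iR4 against Vehicle, and 3 to 6 for the iR4 effect against the knockout effect. The share of all genes called was not computed for these other edgeR fits. The replicate block (replicate number as a term) gave 4 members for R4KO_1 against control and changed the call of 0 of 83 single member results. The cause of these changes was not tested.

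Directions turned for these results. TBK1 in R4KO_2 was -0.0017 with RLE factors, -0.0073 without a filter, -0.0052 with DESeq2, -0.004 with only the groups compared and -0.0714 to 0.0646 on leaving out 1 library. IRF3 in R4KO_2 was -9e-04 without a filter and -0.042 to 0.0654 on leaving out 1 library, and in iR4 0.038 with upper-quartile factors, 0.0035 with the 1 CPM filter and -0.0284 to 0.0232 on leaving out 1. In R4KO_1, leaving out 1 library gave -0.0556 to 0.0804 for TBK1 and -0.0091 to 0.208 for IFI16, and in mouse -0.0363 to 0.477 for Tbk1 and -0.316 to 0.192 for Irf3. STING1 in KO_2 cells with H-151, called lower against Ctrl Vehicle at -0.22, was 0.152 against Vehicle of the second set. In the mouse, 2 tumors a group limit what can be called.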

Other observations

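The mouse has no gene named Ifi16, and the related PYHIN genes of its interferon-inducible cluster named here were chosen after their values were seen. Mndal stood at 2.65 and 5.03 CPM in Wt replicates 1 and 2 and at 8.92 and 8.94 in R4KO. Ifi203 stood at 4.68 and 1.79 CPM against 8.61 and 8.07, and Aim2, the inflammasome sensor, at 0.113 and 1.26 against 2.01 and 3.18. These genes were higher in both knockout tumors than in both wild-type tumors, as were 16.4% of all tested genes. Ifi205, Ifi206, Ifi207, Ifi208 and Ifi213 were so as well, at no more than 4.54 CPM. Ifi204 (2.31 and 19.2 against 5.62 and 24.3 CPM) and Ifi202b (39.8 and 223 against 44.8 and 129) overlapped between the groups. Ifi209 (0.677 and 20.7 against 3.4 and 7.24) and Ifi211 (0 and 4.17 against 2.79 and 3.62) overlapped too, and Ifi214 was at 0 in every tumor. These are similar genes of 1 cluster, so single values are uncertain.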
